A study of Mus musculus with 4 samples.

Results

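The endothelial and vascular genes described here are 31 genes chosen by symbol, among 24982 genes of a count table from mouse forebrain at E10.5 (the embryonic day). All 31 symbols were rows of the table, and all 31 passed the count filter that left 14235 genes for testing. RNA sequencing was done on 4 libraries of micro-dissected forebrain, 2 control and 2 conditional knockout (cKO). The control libraries were labelled Chd7 +/f, which is 1 floxed allele of the chromatin remodeller gene Chd7 with no Cre named. The cKO libraries were labelled Sox1 cre+/-; Chd7 f/f, so both of their Chd7 alleles were floxed and a Cre driven as the Sox1 gene is was present. Sox1 is a gene of the neural plate and of neural progenitors, whereas endothelial cells arise from mesoderm. The Cre allele itself was named for the cKO libraries only, and its effect cannot be told apart from that of Chd7 loss. The study asked how CHD7 affects neurogenic gene expression. Whether each library holds 1 embryo or several is not stated, and the p-values therefore rest on library-to-library spread, which may be technical.

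Endothelial cells line blood vessels. In the embryo they form from mesoderm under vascular endothelial growth factor (VEGF) signalling, and the ETS, SoxF and GATA/TAL1 transcription factors turn on genes for their receptors, junctions and surface proteins. The forebrain makes no vessels of its own: sprouts grow in from a plexus around the neural tube, towards VEGF-A and Wnt ligands released by neural progenitors. At this stage the same vessels carry primitive red blood cells, and blood and endothelial precursors share several transcription factors.

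Total counts were 16581252 to 17096522 per library, and the 31 genes together took 0.0615% to 0.0758% of them, with 47 to 1504 counts per gene and library. Levels are given as CPM, counts scaled to a common library size with TMM factors (trimmed mean of M values). Fold changes are log2 values of cKO over control ± the standard error (SE) from edgeR's quasi-likelihood test, with n = 2 per group. A gene was called where its p, adjusted by Benjamini-Hochberg across the 14235 genes, was under 0.05. The targeted gene Chd7 was at 339 and 345 CPM in the controls and 136 and 132 CPM in the cKO libraries (log2 fold change −1.35 ± 0.05, edgeR adjusted p = 8.7e-05). Every defining endothelial marker was present in every library. In bulk tissue, fewer endothelial cells and less RNA per endothelial cell cannot be told apart, nor can reads of a gene from endothelial cells and from other cells that express it.

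Promoter sequences are shown because most of the 31 genes had lower estimates in the cKO libraries, and ETS factors are members of the list and regulators of endothelial genes. RefSeq start sites of GRCm38.p6 were matched for 16 of the 31 genes (22 start sites), and the 250 bases upstream were searched on both strands. The letters searched were CCGGAA and AGGAAG for ETS factors, AACAAT for SOX factors, AGATAA for GATA factors and CAGATG for the E-box of TAL1. Cd34 is shown as a gene that fell, Cldn5 as a gene whose estimate was lower without a call, and Eng as a gene whose estimate was not lower. Each is written 5′ to 3′ on the gene's strand, and capitals mark every match.
Cd34, chr1:194938571-194938820, plus strand: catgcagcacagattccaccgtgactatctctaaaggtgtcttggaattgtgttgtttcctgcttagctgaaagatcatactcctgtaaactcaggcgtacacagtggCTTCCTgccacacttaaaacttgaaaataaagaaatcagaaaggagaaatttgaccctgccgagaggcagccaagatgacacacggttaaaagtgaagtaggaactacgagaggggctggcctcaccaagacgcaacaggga
Cldn5, chr16:18776597-18776846, plus strand: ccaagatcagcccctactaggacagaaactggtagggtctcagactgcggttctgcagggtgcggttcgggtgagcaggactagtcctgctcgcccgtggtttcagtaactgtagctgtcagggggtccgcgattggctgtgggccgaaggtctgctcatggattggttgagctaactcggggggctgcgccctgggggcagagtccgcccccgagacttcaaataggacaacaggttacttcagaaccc
Eng, chr2:32646345-32646594, plus strand: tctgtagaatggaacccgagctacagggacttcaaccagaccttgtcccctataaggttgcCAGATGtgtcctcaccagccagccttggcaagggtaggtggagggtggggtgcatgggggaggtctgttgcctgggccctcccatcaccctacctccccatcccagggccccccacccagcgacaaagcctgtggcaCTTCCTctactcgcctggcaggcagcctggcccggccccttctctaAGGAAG
Cd34 had 1 match, an AGGAAG on the opposite strand, Cldn5 had 0 and Eng had 2 AGGAAG matches and 1 CAGATG match. AGGAAG was in 10 of the 22 member windows (45.5%) and in 29.5% of all 32851 windows of the table. CCGGAA was in 9.09% of member windows and 12.0% of all, AACAAT in 13.6% and 9.42%, AGATAA in 9.09% and 9.99%, and CAGATG in 18.2% and 14.4%. These shares describe letters only, and windows of genes with several start sites are not independent of each other. Some windows also overlap annotated exons, by all 250 bases for Rasip1, Flt4 and 1 Gata2 window, 212 for Tie1 and 75 for Robo4. Of these, the Rasip1, Tie1 and Robo4 windows held an AGGAAG match.

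In the cKO forebrain the apelin receptor gene Aplnr and the sialomucin gene Cd34 fell, and none of the 31 genes was called higher. Estimates were below 0 for 28 of the 31 genes (90.3%, against 50.1% of all genes tested), with a median log2 fold change of −0.30, where the median of all genes tested was −0.00028. The 2 calls make up 6.45% of the list. Of all genes tested, 2.13% were called lower by edgeR (2.48% by DESeq2, 1.90% by limma-voom) and 3.70% in either direction. DESeq2 and limma-voom called the same 2 members. No member was called higher by edgeR, DESeq2 or limma-voom, where 1.57% of all genes were by edgeR; at an unadjusted p under 0.05, 1 member was higher and 14 were lower (edgeR), against 8.43% and 9.10% of all genes. For 21 members both cKO libraries lay below both controls (67.7%, against 24.0% of all genes tested), and for 3 members both lay above (9.68%, against 24.3%). Genes measured in the same libraries are not independent observations of a change.

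The summed level of the 31 genes was 755 and 751 CPM in the controls and 648 and 622 CPM in the cKO libraries. The cKO mean was thus 84.3% of the control mean, and each cKO sum was below each control sum. Of the 31 genes, 12 were highest in control replicate 1 and 15 in control replicate 2, while 11 were lowest in cKO replicate 1 and 17 in cKO replicate 2. The lower level was therefore shared by both cKO libraries. Among the 8458 genes tested whose mean level was within the range of the members (3.61 to 83.3 CPM), 50.8% had an estimate below 0 and 2.33% were called lower.

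**Figure D1:**
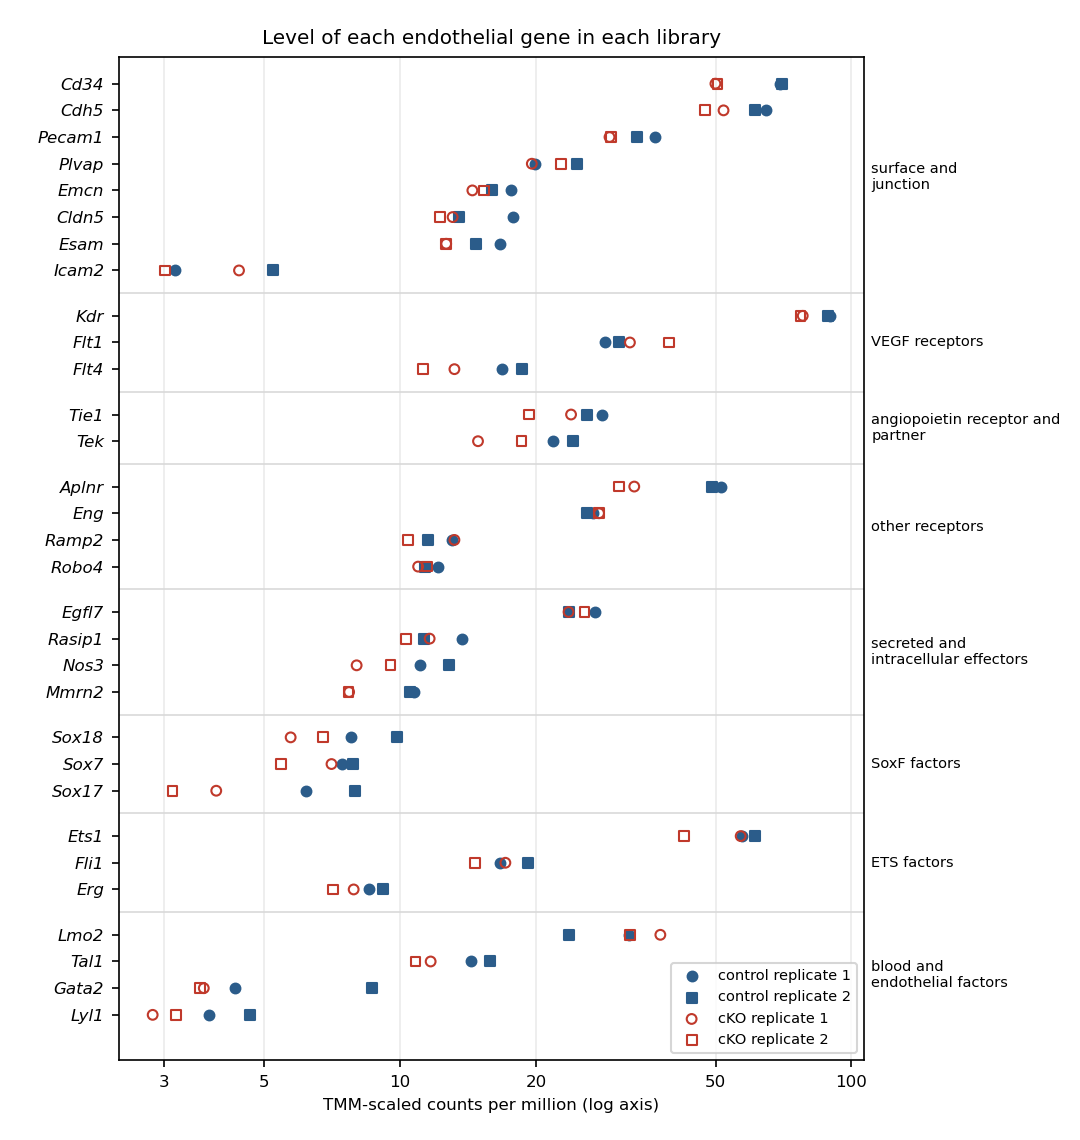
Level of each of the 31 genes in each library, in TMM-scaled counts (CPM) on a log axis, grouped by role. Filled blue symbols are the 2 control and open red symbols the 2 cKO libraries (circle, replicate 1; square, replicate 2). The cKO symbols lie to the left of both control symbols for 21 genes and to the right for 3 (Flt1, Eng and Lmo2).

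**Figure D2:**
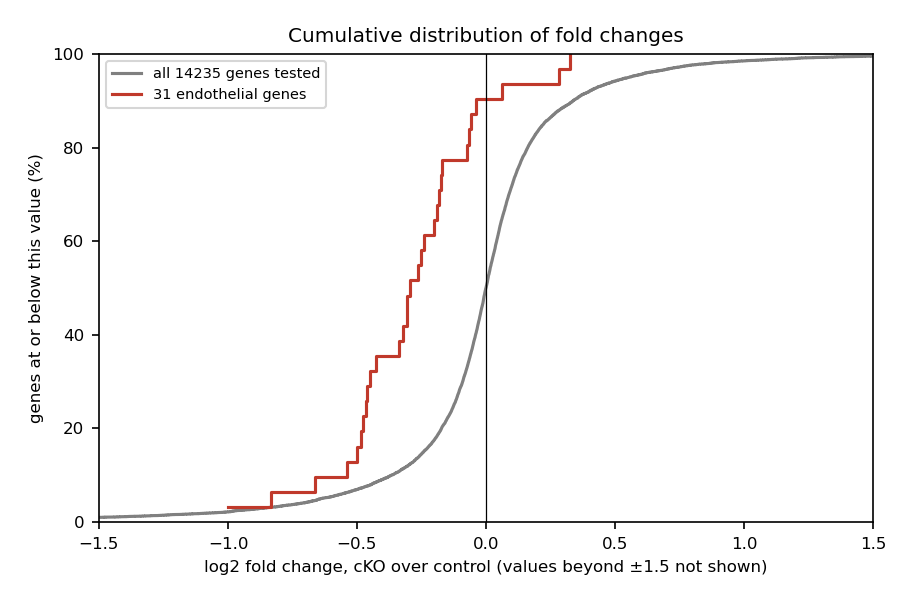
Cumulative share of genes (y axis, percent) at or below each log2 fold change of cKO over control (x axis), for the 31 endothelial genes (red) and all 14235 genes tested (grey). The red curve lies to the left of the grey one over most of its length, with medians of −0.30 and −0.00028.

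The members differed among themselves, from a cKO level of 49.9% of control (Sox17) to 125% (Lmo2). The 95% interval of the log2 fold change was below 0 for 14 genes, above 0 for 1 (Flt1) and spanned 0 for 16. These intervals are not adjusted for the number of genes.

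**Figure D3:**
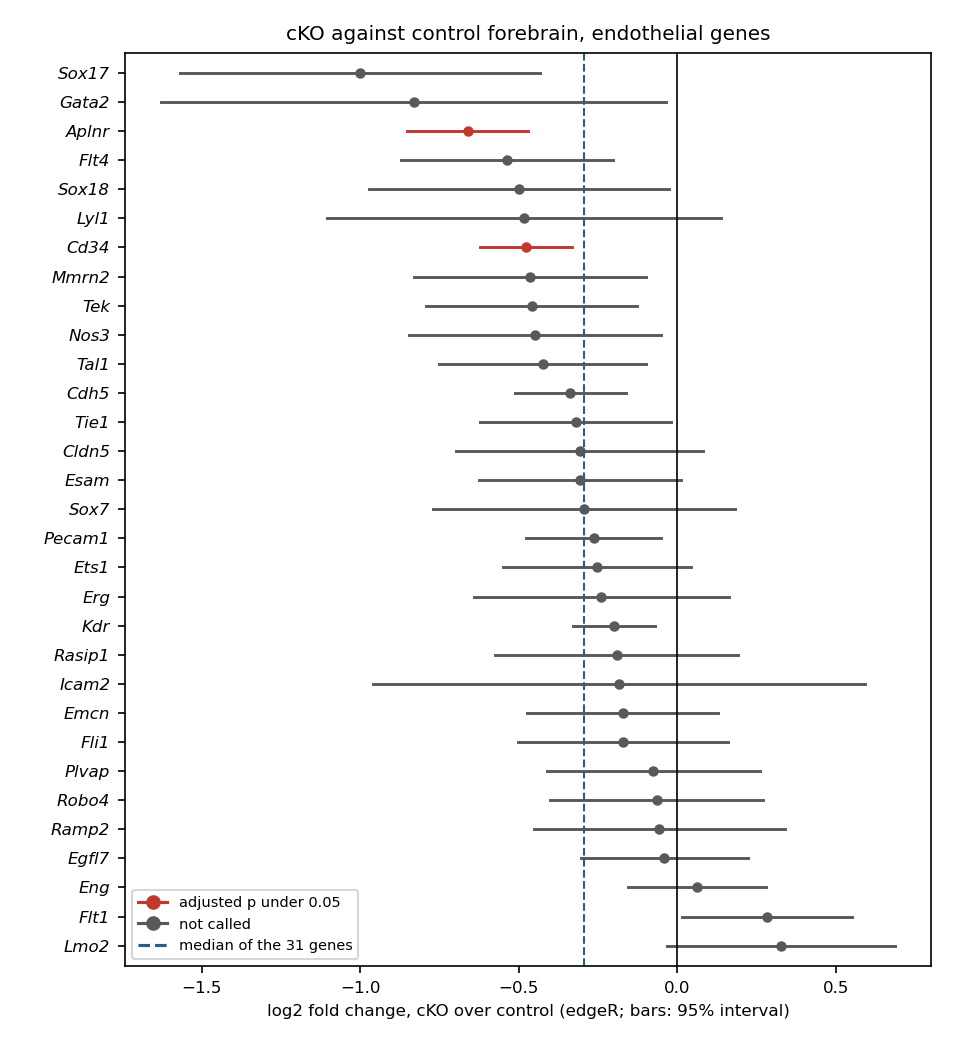
Log2 fold change of cKO over control for each of the 31 genes (points; bars are 95% intervals of the edgeR fit, not adjusted for the number of genes), ordered by estimate. Red marks the called genes Aplnr and Cd34, the dashed line is the median of the 31 genes (−0.30), and Eng, Flt1 and Lmo2 are the genes to the right of 0.

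Surface and junction genes were lower in estimate throughout, and 1 of 8 was called lower by edgeR, against 2.13% of all genes tested. For 6 of the 8 both cKO libraries lay below both controls, against 24.0% of all genes tested. Cd34 (chromosome 1, 194938821 to 194961292, plus strand) encodes a sialomucin on endothelial and blood precursor cells. It was at 69.5 and 70.3 CPM in the controls and at 49.96 and 50.5 CPM in the cKO libraries. Both cKO libraries lay well below both controls, replicates differed by 1.013-fold (control) and 1.011-fold (cKO), and Cd34 fell to 71.9% of the control level (log2 fold change −0.48 ± 0.06, edgeR adjusted p = 0.0092). Without cKO replicate 2 the estimate was −0.48 with an adjusted p of 0.0523. Exons of Cd34 share 148 of 7290 bases with the opposite-strand gene Gm16897, and the recorded counting set no strand option.

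Cdh5, which encodes VE-cadherin, the adhesion protein of endothelial adherens junctions, was at 64.6 and 61.0 CPM in the controls and at 52.1 and 47.4 CPM in the cKO libraries. Its groups did not overlap, and the log2 fold change of −0.34 ± 0.08 (edgeR adjusted p = 0.0581) missed the threshold. Pecam1, an adhesion molecule of endothelial contacts, was at 36.8 and 33.4 CPM in the controls and at 29.1 and 29.3 CPM in the cKO libraries (log2 fold change −0.26 ± 0.09, adjusted p = 0.194). The tight junction claudin gene Cldn5 was at 17.8 and 13.5 CPM in the controls and at 13.1 and 12.2 CPM in the cKO libraries. Here control replicate 2 lay close to the cKO libraries, and the estimate of −0.31 ± 0.17 (adjusted p = 0.40) was within that spread. The adhesion molecule gene Esam was at 16.6 and 14.7 against 12.7 and 12.7 CPM, and endomucin (Emcn), a sialomucin that limits leukocyte adhesion, at 17.6 and 16.01 against 14.5 and 15.3 CPM. Groups overlapped for Plvap, a protein of fenestral diaphragms (19.9 and 24.7 against 19.6 and 22.8 CPM), and for the intercellular adhesion molecule Icam2 (3.18 and 5.24 against 4.40 and 3.02 CPM).

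None of the 3 VEGF receptor genes was called, and their estimates had different signs. Kdr (chromosome 5, 75932827 to 75979072, minus strand), the main signalling receptor for VEGF-A, was at 89.7 and 88.5 CPM in the controls and at 78.0 and 77.1 CPM in the cKO libraries. The gap between groups was larger than that within them, yet the size was small and the call was missed (log2 fold change −0.20 ± 0.05, edgeR adjusted p = 0.108). Flt4, the receptor for VEGF-C, was at 16.9 and 18.6 CPM in the controls and at 13.2 and 11.2 CPM in the cKO libraries (log2 fold change −0.54 ± 0.14, adjusted p = 0.0995). Flt1, which binds VEGF-A with high affinity and in its soluble form withholds it from Kdr, was at 28.5 and 30.5 CPM in the controls and at 32.3 and 39.4 CPM in the cKO libraries. Both cKO values of Flt1 were above both controls, unlike those of Kdr and Flt4, and cKO replicate 2 was the higher (log2 fold change 0.28 ± 0.11, adjusted p = 0.266). The difference between these genes was not tested.

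Of the angiopoietin system, Tek encodes the receptor (TIE2) that stabilises vessels on binding angiopoietins and Tie1 encodes its partner. Tek was at 21.8 and 24.2 CPM in the controls and at 14.9 and 18.6 CPM in the cKO libraries (log2 fold change −0.46 ± 0.14, edgeR adjusted p = 0.147). Tie1 was at 28.0 and 26.0 CPM in the controls and at 23.9 and 19.3 CPM in the cKO libraries (log2 fold change −0.32 ± 0.13, adjusted p = 0.26). Neither was called, and for both genes the cKO libraries lay below both controls, as for 24.0% of all genes tested.

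Among the other receptors Aplnr fell and the rest were close to the control level. Aplnr (chromosome 2, 85136360 to 85139923, plus strand) encodes the receptor for the peptides apelin and Apela, which is strong in venous and sprouting endothelium. It was at 51.5 and 49.0 CPM in the controls and at 33.0 and 30.5 CPM in the cKO libraries. The level fell to 63.2% of control (log2 fold change −0.66 ± 0.08, edgeR adjusted p = 0.0078), a difference far larger than that between replicates. The call was kept without each library in turn (adjusted p 0.00566 to 0.0422). Endoglin (Eng), a co-receptor for TGF-β family ligands, was at 26.8 and 26.0 against 27.6 and 27.6 CPM (log2 fold change 0.06, 95% interval −0.15 to 0.28). Ramp2, part of the adrenomedullin receptor, was at 13.02 and 11.5 against 13.2 and 10.4 CPM, with overlapping groups (log2 fold change −0.06, 95% interval −0.45 to 0.34). Robo4, a roundabout receptor of endothelium, was at 12.1 and 11.4 against 10.97 and 11.5 CPM, also with overlapping groups (−0.06, −0.40 to 0.27). Exons of Ramp2 share 1103 of 3301 bases in GENCODE M21 with its neighbour Vps25.

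The secreted and intracellular effectors held no called gene. Multimerin 2 (Mmrn2), a matrix protein of endothelium, was at 10.7 and 10.54 CPM in the controls and at 7.71 and 7.69 CPM in the cKO libraries (log2 fold change −0.47 ± 0.16, edgeR adjusted p = 0.181). The endothelial nitric oxide synthase gene Nos3 was at 11.1 and 12.8 CPM in the controls and at 8.02 and 9.52 CPM in the cKO libraries (−0.45 ± 0.17, adjusted p = 0.233). For these genes both cKO libraries lay below both controls, as for 24.0% of all genes tested. The secreted vessel factor gene Egfl7 (27.0 and 23.7 against 23.6 and 25.6 CPM) and Rasip1, a Ras-interacting protein needed for vessel lumens (13.7 and 11.3 against 11.6 and 10.3 CPM), overlapped between groups. Nos3 shares 294 of 4132 exon bases with the opposite-strand gene Atg9b. It also shares 1040 with the opposite-strand gene Gm15587, which was not a row of the count table. Rasip1 shares 498 with the opposite-strand gene A030001D20Rik and 654 of 3202 with the same-strand gene Izumo1.

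All 3 SoxF genes, which encode the HMG-box factors that act with ETS factors in endothelium, had cKO levels below both controls, and none was called. Such a separation was seen for 24.0% of all genes tested. Sox17 (chromosome 1, 4490928 to 4497426, minus strand), linked to arterial identity, had the lowest estimate of the 31 genes. It was at 6.18 and 7.95 CPM in the controls and at 3.92 and 3.14 CPM in the cKO libraries, which are 103, 135, 65 and 53 counts (log2 fold change −1.001 ± 0.24, edgeR adjusted p = 0.0761). Sox18 was at 7.80 and 9.83 against 5.73 and 6.74 CPM (−0.50 ± 0.20, adjusted p = 0.263), and Sox7 at 7.44 and 7.89 against 7.05 and 5.44 CPM (−0.30 ± 0.20, adjusted p = 0.522). At these levels the 95% interval of Sox7 reached from −0.77 to 0.18. Exons of Sox17 share 804 of 4772 bases with the opposite-strand gene Gm37587, which was not a row of the count table.

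The ETS factor genes were lower in estimate by less than the median of the list. Erg, which maintains endothelial identity, was at 8.52 and 9.18 against 7.90 and 7.10 CPM (log2 fold change −0.24 ± 0.17, edgeR adjusted p = 0.542). Fli1, its close relative, was at 16.6 and 19.2 against 17.1 and 14.7 CPM, with overlapping groups. Ets1, which is also active in neural crest and mesenchyme, was at 57.3 and 61.0 against 56.8 and 42.5 CPM. Its lower mean rested on cKO replicate 2: without that library its log2 fold change was −0.06.

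The factors shared by blood and endothelial precursors had estimates of both signs, with no call. The bHLH factor gene Tal1 was at 14.4 and 15.8 CPM in the controls and at 11.7 and 10.8 CPM in the cKO libraries (log2 fold change −0.42 ± 0.14, edgeR adjusted p = 0.174). Its relative Lyl1 was at 3.78 and 4.65 against 2.83 and 3.19 CPM (−0.48 ± 0.27, adjusted p = 0.408). Lmo2, which bridges these factors to GATA proteins, was at 32.2 and 23.7 against 37.7 and 32.3 CPM, so that cKO replicate 2 barely exceeded control replicate 1 (0.33 ± 0.15, adjusted p = 0.331). Gata2, a zinc finger factor of blood precursors, endothelium and some neurons, was at 4.32 and 8.65 against 3.68 and 3.61 CPM. The controls differed 2.003-fold in Gata2, and its estimate of −0.83 ± 0.34 (adjusted p = 0.268) was −0.24 with control replicate 2 left out and −1.25 with control replicate 1 left out.

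Per length, levels followed a different order. CPM values were divided by the exon length of each gene in kilobases (GENCODE M21) to give RPKM. The counts were made on a UCSC RefSeq annotation, so these lengths may differ from the exons counted, and the SDs do not include that difference. In control libraries the highest were Cdh5 (14.9 ± 0.60 RPKM, SD, n = 2), Aplnr (13.6 ± 0.47), Lmo2 (12.9 ± 2.8), Plvap (11.2 ± 1.7) and Cldn5 (11.1 ± 2.1), and from Aplnr on each neighbour in this order differed from the next by less than the larger SD of the pair. The lowest were Flt4 (2.15 ± 0.15), Sox17 (1.48 ± 0.26) and Gata2 (1.20 ± 0.57), the last pair differing by less than the SD of Gata2. In cKO libraries Aplnr was at 8.59 ± 0.48 RPKM, level with Kdr (8.59 ± 0.066), within 1 SD of Cldn5 (8.94 ± 0.42), and below Lmo2 (16.2 ± 1.8), Cdh5 (11.8 ± 0.79) and Plvap (10.7 ± 1.1).

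In the authors' deposited table the same 2 of the 31 genes had an adjusted p under 0.05, both lower, where 2.49% of its genes were lower and 1.99% higher. Its log2 fold change was −0.66 for Aplnr (adjusted p = 0.000116) and −0.48 for Cd34 (adjusted p = 0.0014), and 28 of the 31 estimates in the authors' deposited table were below 0. That table rests on the same counts and is not an independent measurement.

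Other endothelial genes, a list of 40 symbols without the 31, had a median closer to 0. Of 34 tested, 1 was called lower and 0 higher by edgeR (9 lower and 2 higher at an unadjusted p under 0.05). Of all genes tested, 2.13% were called lower and 1.57% higher by edgeR, and 9.10% and 8.43% at an unadjusted p under 0.05. The median log2 fold change of the list was −0.18. Both cKO libraries lay below both controls for 16 genes and above them for 3, against 24.0% and 24.3% of all genes tested. In that list 0 genes were higher by DESeq2 and by limma-voom. The gene that fell was S1pr1, the sphingosine-1-phosphate receptor of vessel walls and also of neural progenitors, at 39.8 and 30.96 CPM in the controls and at 23.1 and 18.8 CPM in the cKO libraries (−0.76 ± 0.15, edgeR adjusted p = 0.0437). With control replicate 1 left out the adjusted p of S1pr1 was 0.151, with cKO replicate 2 left out 0.186, and in limma-voom 0.0518. The summed level of the list was 467 and 462 CPM in the controls and 421 and 413 CPM in the cKO libraries. Of 18 arterial, venous and tip cell genes 1 was called higher and 0 lower by edgeR (2 and 3 at an unadjusted p under 0.05; 1 and 1 by DESeq2, 1 and 0 by limma-voom), with a median of −0.16. The called gene was Unc5b, a netrin receptor of tip cells and neurons (40.9 and 38.7 against 55.0 and 58.9 CPM, 0.52 ± 0.08, adjusted p = 0.014, and 0.0871 without cKO replicate 2).

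Among genes for angiogenic ligands, calls were found in both directions. Of 20 tested, 3 were lower and 1 higher by edgeR (4 and 3 at an unadjusted p under 0.05), with a median of −0.23. DESeq2 and limma-voom each called 3 lower and 0 higher. Of all genes tested, 2.13% were called lower and 1.57% higher by edgeR, and 9.10% and 8.43% at an unadjusted p under 0.05. Wnt7a, a Wnt ligand of neural progenitors that guides vessels into the brain, was at 27.4 and 22.4 CPM in the controls and at 9.58 and 9.35 CPM in the cKO libraries (−1.40 ± 0.15, edgeR adjusted p = 0.0044). The angiopoietin gene Angpt1, whose product activates TIE2, was at 17.9 and 17.01 CPM in the controls and at 7.53 and 6.09 CPM in the cKO libraries (−1.36 ± 0.16, adjusted p = 0.0071). Both calls were kept without each library in turn. Vegfc, the ligand of Flt4, was at 14.6 and 16.01 CPM in the controls and at 9.16 and 6.45 CPM in the cKO libraries (−0.97 ± 0.19, adjusted p = 0.0418). Vegfc missed the threshold when control replicate 1 (adjusted p = 0.0782), control replicate 2 (0.0716) or cKO replicate 2 (0.147) was left out. Tgfb3, a TGF-β ligand, rose (6.18 and 6.89 against 11.03 and 11.6 CPM, 0.79 ± 0.17, adjusted p = 0.0481), a call lost without each library in turn (0.0594 to 0.212), in DESeq2 (0.0781) and in limma-voom (0.0519).

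The other VEGF, angiopoietin and apelin receptor ligands of the list were not called, and they differed in direction; they and Wnt7b were named after their values were seen. Vegfa, the ligand of Kdr and Flt1, was at 97.9 and 101 against 99.6 and 115 CPM (log2 fold change 0.11, 95% interval −0.07 to 0.29). Wnt7b was at 223 and 203 against 236 and 215 CPM (0.08, −0.07 to 0.24). Apelin (Apln), the ligand of the receptor that fell, was at 15.7 and 14.5 against 13.6 and 19.3 CPM (0.13 ± 0.18, edgeR adjusted p = 0.786). For these genes, and for Apela and the Flt4 ligand gene Vegfd at lower levels, the groups overlapped. Pgf, the gene of a Flt1 ligand (placental growth factor), was at 0.54 and 0.59 CPM in the controls and at 1.75 and 2.60 CPM in the cKO libraries, which are 9, 10, 29 and 44 counts. Both cKO values of Pgf were above both controls, and it missed the threshold (1.93 ± 0.44, adjusted p = 0.0624). Both cKO libraries were below both controls for the Flt1 ligand gene Vegfb (26.9 and 28.3 against 23.4 and 24.1 CPM, −0.22 ± 0.10, adjusted p = 0.304) and the Tek ligand gene Angpt2 (1.86 and 1.59 against 1.45 and 0.71 CPM, −0.68 ± 0.46, adjusted p = 0.511).

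Of 16 co-receptor and brain vessel entry genes, 14 had estimates below 0, against 50.1% of all genes tested, with a median of −0.13. DESeq2 called 2 lower and 0 higher, and limma-voom 1 and 0. At an unadjusted p under 0.05, 3 were lower and 0 higher by edgeR, against 9.10% and 8.43% of all genes tested. After adjustment 1 was lower and 0 higher by edgeR, against 2.13% and 1.57% of all genes tested. That gene was the semaphorin receptor gene Plxnd1 (108 and 112 against 90.1 and 90.4 CPM, −0.28 ± 0.05, adjusted p = 0.0365), whose call was lost without each library in turn (0.0702 to 0.18). Of 18 brain barrier genes 2 were higher and 0 lower by edgeR (7 and 1 at an unadjusted p under 0.05), DESeq2 and limma-voom also called 2 and 0, and the median was 0.13. These were the glucose transporter gene Slc2a1 (215 and 248 against 312 and 369 CPM, 0.56 ± 0.09, adjusted p = 0.0233) and the monocarboxylate transporter gene Slc16a1 (99.6 and 103 against 122 and 129 CPM, 0.30 ± 0.06, adjusted p = 0.0345). Neural progenitors express these transporters as well, and both calls were lost without control replicate 1 (0.054 and 0.116) or cKO replicate 2 (0.08 and 0.196), that of Slc16a1 also without cKO replicate 1 (0.0678).

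**Figure D4:**
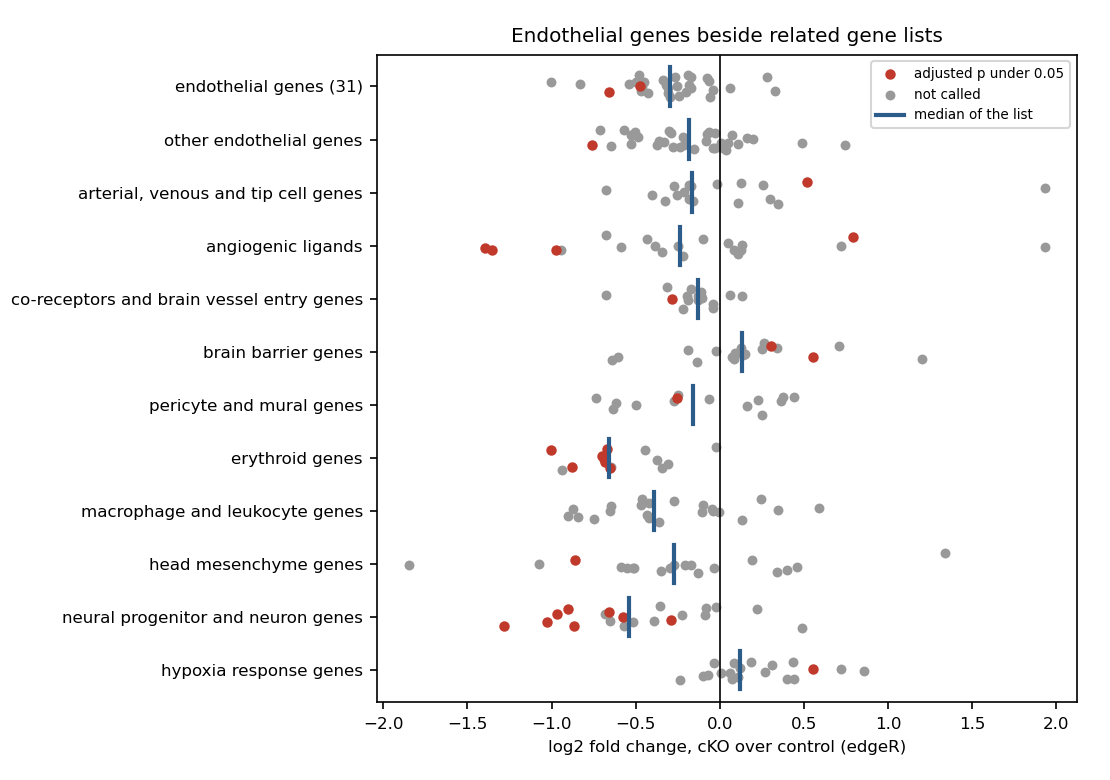
Log2 fold change of cKO over control (x axis) for each gene tested of the 31 endothelial genes and of the related lists (rows; points are spread vertically for visibility). Red points were called, blue bars are list medians: −0.30 for the 31 genes, −0.66 for erythroid genes and 0.13 for brain barrier genes.

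Marker lists of other cells held called genes in the same contrast, where 2.13% of all genes tested were lower and 1.57% higher by edgeR. At an unadjusted p under 0.05 these shares were 9.10% and 8.43%. By edgeR 7 of the 14 erythroid genes tested were lower and 0 higher (8 and 0 at an unadjusted p under 0.05; 7 and 0 by DESeq2 and by limma-voom), with a median of −0.66. Their summed level was 3149 and 3375 CPM in the controls and 2173 and 2105 CPM in the cKO libraries (65.6% of control). The adult globin genes Hba-a1, Hba-a2, Hbb-bt and Hbb-bs had 0 counts in all libraries. How reads that match several similar genes were counted was not checked, so these counts do not show absence of expression. The most abundant was the embryonic globin gene Hbb-y (1200 and 1219 against 782 and 709 CPM, −0.70 ± 0.05, edgeR adjusted p = 0.0014), and Hba-x, Hbb-bh1, Slc4a1 and Alas2 were among the others called. With 1 library left out, 4 to 5 erythroid genes were called. Removing the erythroid genes before library sizes were set left the same 2 calls and a median of −0.30 among the 31 genes. That step alters only library scaling and the set of genes tested. It is no check of blood or vessel content, which was not tested.

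Pericyte and mural genes, 14 tested, had a median of −0.16, with 1 lower and 0 higher by edgeR (4 and 1 at an unadjusted p under 0.05; 2 and 0 by DESeq2 and by limma-voom). The called gene was Notch3, which neural progenitors also express (224 and 223 against 182 and 192 CPM, −0.26 ± 0.05, adjusted p = 0.0369, and 0.0506 to 0.161 with 1 library left out). Head mesenchyme genes, 19 tested, had a median of −0.27, with 14 estimates below 0, against 50.1% of all genes tested. Summed head mesenchyme levels were 1219 and 1429 CPM in the controls and 1304 and 884 CPM in the cKO libraries, lowest in cKO replicate 2. Of 20 neural progenitor and neuron genes 8 were lower and 0 higher by edgeR (14 and 1 at an unadjusted p under 0.05; 9 and 1 by DESeq2, 7 and 0 by limma-voom), with a median of −0.54 and 5 to 12 lower with 1 library left out. Of all genes tested, 2.13% were called lower and 1.57% higher by edgeR, and 9.10% and 8.43% at an unadjusted p under 0.05. Pax6, Sox3, Elavl3, Tubb3 and Lhx2 were among the neural genes called. Estimates were below 0 for 18 of the 20, against 50.1% of all genes tested. Groups overlapped for Nes (log2 fold change −0.02), Sox2 (−0.09) and Emx2 (−0.08), which were not called. Six3 (0.49) and Otx2 (0.22) had estimates above 0 and were not called either. The part of these cell types in the endothelial values was not tested.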

How the data were processed

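PolyA RNA was sequenced in 4 libraries. The submitters' processing notes list HISAT2, featureCounts, DESeq2 and the build mm10. The deposited raw counts come from featureCounts 2.0.1, which summed exons per gene of a UCSC RefSeq annotation in paired-end mode and was given no strand option, per the file headers. A second table from the authors holds log2 fold changes with errors, p-values and adjusted p-values, a Wald score (not used) and normalized counts, a signal equal to the raw count over 1 constant per library (0.990 to 1.013). For HISAT2 and the submitters' DESeq2 no version is given in the sources used here.

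Genes were kept by filterByExpr (minimum count 10), scaled by TMM and tested in edgeR 4.0.16 (glmQLFit, glmQLFTest, R 4.3.3, no covariate), with Benjamini-Hochberg adjustment over 14235 genes; the SE is the fold change over the root of F. The fit was checked on simulated counts. The common biological coefficient of variation was 0.0785. Replicates differed beyond sampling noise (chi-square per degree of freedom 5.57 and 4.69). Coordinates are RefSeq GRCm38.p6; exon lengths and overlaps are GENCODE M21. Alternatives used DESeq2 1.42.0, limma 3.58.1 (voom), other scaling and filters, the replicate number as a block and each library left out. Members, lists and tests were chosen with earlier results of these data known. Every member is named; of a related list the called genes (at most 6, by p) are named, or, with no call, the 2 of lowest p; other names were chosen after their values were seen, and some genes are not reported here. Of 255 list symbols 252 were in the count table. Plots were drawn with matplotlib 3.10.9.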

Additional observations from a re-analysis of the deposited data

How the results depend on the processing

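With scaling by DESeq2 size factors or upper quartiles, without the count filter, with a 5 CPM minimum mean (29 members tested), in the DESeq2 Wald test, in limma-voom and after removal of erythroid genes, the called members were Aplnr and Cd34 and no others, and the median of the members was −0.30 to −0.28. Across all alternatives 1 member call changed, that of Cd34 without cKO replicate 2. Leaving out each library in turn gave 1 to 2 members lower, 0 higher, a median of −0.33 to −0.21 and 211 to 769 genes called in all, against 526 with every library; there the single library left in a group is assumed to vary as the other group does. Without 1 library the estimates of Ramp2, Egfl7, Plvap and Icam2 changed sign (0.02 to 0.22, none called).

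The replicate numbers are shared between groups, but nothing in the labels pairs the samples, and the differences between replicates 1 and 2 of the 2 groups correlated at −0.0531 across 14235 genes. With the replicate number as a block (replicate block), 2 members were lower, 0 higher, the member median was −0.30 and 348 genes were called in all. Under the block Vegfc (adjusted p = 0.0762), Tgfb3 (0.081), Plxnd1 (0.071), Slc16a1 (0.0556) and Notch3 (0.0663) were among the related genes no longer past the threshold. At 47 to 147 counts per library, as for Lyl1, Icam2, Gata2 and Sox17, the intervals are wide.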

Other observations

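Myeloid genes were low and leaned downwards without a call. Of 22 macrophage and leukocyte genes tested, 0 were lower and 0 higher by edgeR, and 0 were called by DESeq2 or limma-voom. At an unadjusted p under 0.05, 3 were lower and 1 higher by edgeR, against 9.10% and 8.43% of all genes tested. The median log2 fold change was −0.39. The smallest p-values belonged to Kit, a receptor of blood precursors and neural cells (37.4 and 41.0 against 50.7 and 49.0 CPM, 0.35, adjusted p = 0.0635), and Laptm5, a lysosomal protein of leukocytes (9.60 and 9.77 against 7.11 and 5.21 CPM, −0.65, adjusted p = 0.149). Without control replicate 2 Kit was called higher (adjusted p = 0.0418).

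Hypoxia response genes leaned the other way. Of 19 tested, 1 was higher and 0 lower by edgeR (8 and 0 at an unadjusted p under 0.05; 5 and 0 by DESeq2, 1 and 0 by limma-voom), with a median of 0.12, and 0 to 6 were called higher with 1 library left out. The called gene was Slc2a1. Of all genes tested, 1.57% were called higher and 2.13% lower by edgeR, and 8.43% and 9.10% at an unadjusted p under 0.05. Of the 19 head mesenchyme genes tested 1 was lower and 0 higher by edgeR (6 and 0 at an unadjusted p under 0.05; 2 and 0 by DESeq2, 1 and 0 by limma-voom). The gene was Foxd1, a forkhead factor of head mesenchyme and diencephalon (33.3 and 41.3 against 20.8 and 20.3 CPM, −0.86 ± 0.12, edgeR adjusted p = 0.0132), a call lost without cKO replicate 2 (0.0639). With cKO replicate 1 left out 6 of these genes were called lower, and with cKO replicate 2 left out 0.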
